A study of Mus musculus with 96 samples.

Results

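The genes described are the subunits of the transcription factor NF-kB, its feedback inhibitors and related IkB proteins, followed through serum stimulation of primary mouse embryonic fibroblasts. The 10 members were the rows of the deposited table with the gene symbols Nfkb1, Nfkb2, Rela, Relb, Rel, Nfkbia, Nfkbie, Nfkbiz, Tnfaip3 and Bcl3, of 15895 genes in all, and every one of them was measured. The fibroblasts came from CF-1 embryos at day 13 and were held for 36 h in medium with 0.5% fetal calf serum before 20% serum was added at 0 h. All libraries share this starvation and this serum, and no culture was left without serum over the same hours. RNA was sequenced in 2 time courses, called Cycle 1, from 1 h before serum (-1 h) to 38 h, and Cycle 2, from -1 h to 27 h. Each time was sampled once per Cycle, so the replicates are the 2 Cycles at the 29 hours after serum that both hold. The labels do not say whether the Cycles came from separate cultures, so the p-values measure the spread between these 2 courses.

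NF-kB is a dimer built from 5 related proteins. Rela, Relb and Rel carry a domain that activates transcription, while Nfkb1 and Nfkb2 are made as long precursors that are cut to the DNA-binding subunits p50 and p52. In resting cells the dimers are held in the cytoplasm by inhibitors of the IkB family. Signals from cytokine receptors, pattern receptors and growth factor receptors activate a kinase complex that marks the inhibitors for destruction, and the freed dimers enter the nucleus and bind kB sites in DNA. Among the genes they switch on are Nfkbia and Nfkbie, which code for the inhibitors IkB alpha and IkB epsilon, and Tnfaip3, which codes for A20, an enzyme that takes ubiquitin chains off the signalling proteins. Nfkbiz and Bcl3 code for atypical IkB proteins that work in the nucleus, where they bind p50 or p52 dimers and alter which genes are transcribed. Below, both are grouped with the inhibitors by family, which does not say that they only inhibit. In fibroblasts the pathway is best known for the rapid expression of chemokines, cytokines and prostaglandin synthase after inflammatory or mitogenic stimuli.

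Matches to the kB consensus near the start sites are shown for the members whose early rise is described below. RefSeq promoter windows of GRCm38.p6, from 250 bases before to 50 bases after a start site, were found for 7 of the 10 members, 10 windows in all. Nfkb1, Relb and Nfkbiz had no entry. The 10-base kB consensus, searched on both strands, was found in 6 of these 7 genes and in 8 of the 10 windows, against 4.51% of all 32851 windows. The exceptions were the window of Rela and 1 of the 2 windows of Tnfaip3, and 2 of the 3 Nfkb2 windows overlap each other. The CArG box bound by serum response factor, which marks many immediate early genes, was in 1.63% of all windows and in none of the members' windows. Each line gives a stretch upstream of the start site, 5′ to 3′ on the strand of the gene, with the bases of a match in capitals.
Nfkb2, chr19:46304689-46304717, plus strand: gatcgtcacGGGAATTCCCCccctcgggg
Nfkb2, chr19:46304716-46304736, plus strand: ggggccgaaaGGGGCTTTCCc
Rel, chr11:23771042-23771070, minus strand: gtaagcagcGGGAAATCCCCccccctccc
Nfkbia, chr12:55492657-55492686, minus strand: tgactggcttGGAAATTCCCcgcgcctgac
Nfkbie, chr17:45555584-45555613, plus strand: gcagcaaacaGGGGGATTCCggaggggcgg
Tnfaip3, chr10:19015516-19015545, minus strand: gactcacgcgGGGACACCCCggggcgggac
Tnfaip3, chr10:19015411-19015432, minus strand: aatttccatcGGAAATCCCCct
The match of Nfkbia began 29 bases before its start site and the nearer match of Tnfaip3 12 bases before it. In Nfkb2 the matches began 39 and 11 bases before the first start site. The first Nfkb2 stretch and that of Rel hold 2 matches shifted by a base. The other 2 Nfkb2 windows, which overlap, each hold a match upstream of the start site, 236 and 225 bases before it. The match at 225 bases also lies in the other of these windows, after that window's start site. Neither match is printed. Nor is the Bcl3 match, which lay just after the start site. A match is a description of the sequence, and binding was not measured.

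The libraries held 4352236 to 12551740 reads on the listed genes. The fibroblast label was checked against marker lists of 4 cell types. All 10 fibroblast markers were present in every library, with a summed value between 529395 and 554400 in the starved libraries of Cycle 1, 398711 and 420926 in those of Cycle 2 and 202864 and 219944 at 21 h to 27 h. The 6 leukocyte markers in the table summed to 486 to 1751 in Cycle 1 and 2012 to 4662 in Cycle 2. Of these Lyz2 was highest, with a median of 744 and a range of 307 to 4066. Csf1r, Cd68, Cd14 and Ptprc had medians of 105, 96.0, 84.3 and 20.4. The T cell marker Cd3e had a median of 0 and a highest value of 9.51. The endothelial sums were at most 271.7 and the epithelial sums at most 172.8. In RNA from whole cultures, fewer cells of a type and less RNA per cell cannot be told apart.

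The libraries labelled 0 h did not look like starved cells in either Cycle. Fos, an immediate early gene that serum induces within minutes, went from 914 at -1 h to 24883 at 0 h in Cycle 1 and from 466 to 15149 in Cycle 2. Egr1, a gene of the same kind, went from 3404 to 28363 and from 1760.0 to 18343. The starved level is the mean of the -1 h and 0 h libraries of the same Cycle, which is the study's own choice, so the counts in each window, and the members whose call or direction changes, are also given with the -1 h libraries alone.

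Among the members, 3 stood far higher at 0 h than at -1 h, and all 3 are inhibitors. Nfkbia (chromosome 12, 56590398 to 56593634, minus strand, mm9) went from 555 to 2699.8 in Cycle 1 and from 323 to 3541 in Cycle 2. Nfkbiz (chromosome 16, 55811488 to 55839012, minus strand) went from 288 to 3048 and from 426 to 3116. Tnfaip3 (chromosome 10, 18720716 to 18735463, minus strand) went from 200 to 836 and from 110 to 1288. In both Cycles the 0 h library was at least 4.18-fold the -1 h library for each of the 3. In a limma fit with each shared hour as the unit, a comparison chosen after the values were seen, the log2 change at 0 h against -1 h was 2.87 for Nfkbia (standard error 0.28, adjusted p = 1.4e-08), 3.13 for Nfkbiz (standard error 0.30, adjusted p = 1.2e-08) and 2.80 for Tnfaip3 (standard error 0.54, adjusted p = 0.0031). The standard errors of this fit come from the spread between the Cycles over all shared hours. The p-values therefore do not measure that spread at -1 h and 0 h alone. The log2 difference at these hours was 2.28 in Cycle 1 and 3.45 in Cycle 2 for Nfkbia. For Tnfaip3 it was 2.06 and 3.54, and for Nfkbiz the Cycles lay closer together. These 3 of 10 members rose and 0 fell, where 0.459% of all genes rose and 0.0944% fell. Ranked by this difference among 10485 genes with a mean value of at least 50, they stood at places 32, 12 and 39 in Cycle 1 and 10, 17 and 8 in Cycle 2.

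The remaining 7 members did not pass this test. Nfkb1 (chromosome 3, 135247619 to 135354511, minus strand) held 742 and 771 in Cycle 1 and 656 and 645 in Cycle 2. Rela (chromosome 19, 5637483 to 5648130, plus strand) held 579 and 663 and then 552 and 646. Nfkb2 (chromosome 19, 46379227 to 46386580, plus strand) held 557 and 567 and then 451 and 463. The ratio of 0 h to -1 h for the subunits other than Rel lay between 0.963 and 1.17.

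Relb (chromosome 7, 20191566 to 20214787, minus strand) stood at 278 and 283 in Cycle 1 and at 207 and 199 in Cycle 2. Rel (chromosome 11, 23641514 to 23670970, minus strand) had the lowest values of the set, 27.1 and 44.7 in Cycle 1 and 26.7 and 42.0 in Cycle 2, a difference that did not pass the test (log2 0.67, standard error 0.62). Nfkbie (chromosome 17, 45692665 to 45700118, plus strand) was at 125 and 106 and at 65.8 and 67.6. For Bcl3 (chromosome 7, 20393811 to 20408119, minus strand) the values were 176 and 147 and then 260 and 253. Exons of Nfkb2 share bases with Psd and those of Bcl3 with Gm16175, each on the opposite strand, and since reads were counted on both strands these pairs cannot be told apart.

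**Figure D1:**
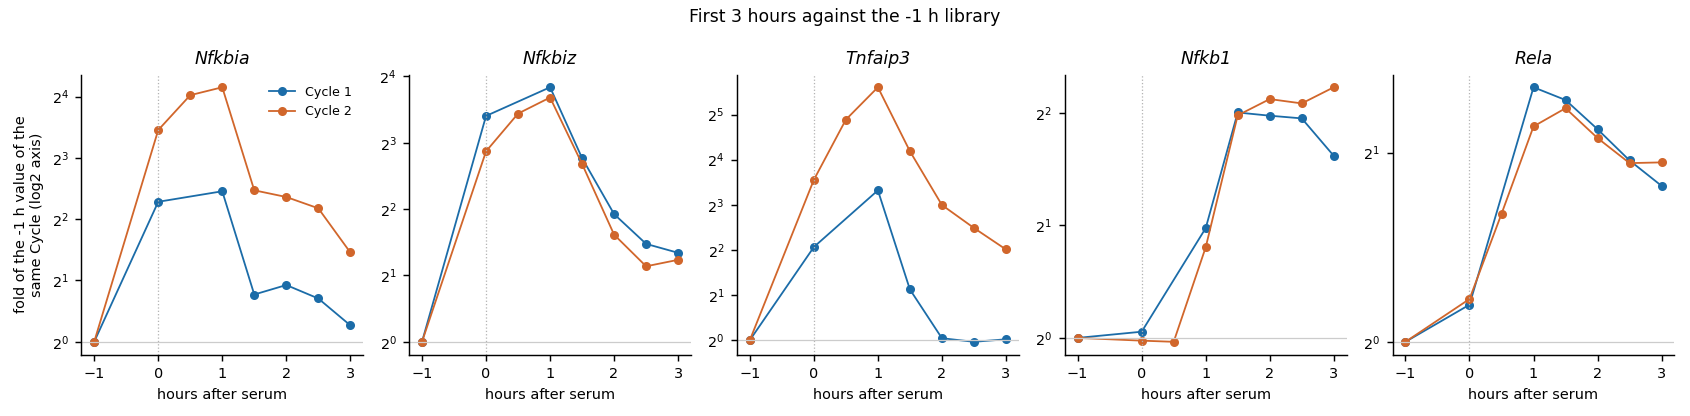
Value of 5 members from -1 h to 3 h as a fold of the -1 h library of the same Cycle (log2 axis), against hours after serum, with 1 point per library and a line per Cycle. Nfkbia, Nfkbiz and Tnfaip3 are already at 4.18-fold or more at 0 h in both Cycles, whereas Nfkb1 and Rela lie between 0.983-fold and 1.17-fold there and rise after it.

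The first question is how the members responded in the first hours of serum. At 0.5 h, sampled in Cycle 2 alone, Nfkbia stood at 5253, Nfkbiz at 4621 and Tnfaip3 at 3248, which is 16.2-fold, 10.8-fold and 29.6-fold their -1 h values. Rel was at 77.5 (2.90-fold), Rela at 883 (1.60-fold), Nfkbie at 105 (1.60-fold) and Relb at 278 (1.34-fold). Nfkb2 was at 552 (1.22-fold), Bcl3 at 264 (1.01-fold) and Nfkb1 at 641 (0.976-fold). Every member but Nfkb1 was thus above both starved libraries of Cycle 2 at this hour, Bcl3 only just (264 against 260 and 253).

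The 3 early inhibitors were highest at 1 h in both Cycles. Nfkbia reached 3041 in Cycle 1 and 5745 in Cycle 2, and was back to 947 and 1792 at 1.5 h. Nfkbiz reached 4113 and 5466 at 1 h and held 1962 and 2730.1 at 1.5 h. Tnfaip3 reached 1997 and 5340.5 at 1 h and 436 and 1999 at 1.5 h. Against the -1 h library the highest value of Tnfaip3 was 9.99-fold in Cycle 1 and 48.7-fold in Cycle 2, while that of Nfkbiz was 14.3-fold and 12.8-fold and that of Nfkbia 5.48-fold and 17.8-fold. The highest value of each gene lay above both starved libraries of its Cycle.

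The subunits, which had not passed the test at 0 h, were above their starved values at 1 h and 1.5 h. Rela, the main activating subunit, was at 1470.2 and 1403 at 1 h and 1.5 h in Cycle 1 and at 1216 and 1299.6 in Cycle 2, all above the 4 starved values of 552 to 663. Relb, which pairs with p52, was at 719 and 638 in Cycle 1 and at 443 and 558 in Cycle 2, above its starved values of 199 to 283. Rel, an activating subunit best known from lymphocytes, was at 140.3 and 81.2 in Cycle 1 and at 168 and 156 in Cycle 2, and did not overlap its starved values either. Nfkb1 was at 1461 and 2980.2 in Cycle 1 and at 1148 and 2588 in Cycle 2, so that most of its rise came between 1 h and 1.5 h. Nfkb2 was at 912 and 1074 and at 715 and 966.

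Over the 1 h and 1.5 h libraries together, 9 of the 10 members rose against starved and 0 fell, where 4.52% of all 15895 genes rose and 9.09% fell. The fold changes here and below come from limma on log2(value + 1), with a call at an adjusted p under 0.05 and a change of at least 1.5-fold. Tnfaip3 rose by 2.15 on the log2 scale (standard error 0.47, adjusted p = 0.017, limma), Rel by 1.91 (standard error 0.33, adjusted p = 0.0069) and Nfkbiz by 1.67 (standard error 0.14, adjusted p = 0.00041). The rises of Nfkb1 (1.43), Relb (1.28), Rela (1.14), Nfkbia (1.03), Nfkbie (0.86) and Nfkb2 (0.84) also passed, with adjusted p between 0.00077 and 0.043. The call of Nfkbia was lost with edgeR on recovered reads (0.64). Bcl3 did not pass, at 0.21 (standard error 0.25, adjusted p = 0.64). The median log2 change was 1.21 for the members and -0.15 for all genes.

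With the -1 h libraries alone as the starved level, 8 members rose and 0 fell, against a background of 5.05% and 11% of all genes. Tnfaip3 then rose by 3.55 (standard error 0.56, adjusted p = 0.0041, limma), Nfkbiz by 3.24 (adjusted p = 5.7e-05) and Nfkbia by 2.46 (adjusted p = 0.0024), while Nfkbie, at 0.81, no longer passed (adjusted p = 0.07). The changes of Nfkb1 (1.44), Nfkb2 (0.86), Relb (1.27) and Rela (1.25) moved little with this choice. With the 0 h libraries alone, 6 members rose, and Nfkbia (-0.41), Nfkbiz (0.10) and Tnfaip3 (0.75) did not pass. Which library was taken as the starting point decided the calls of these 3 inhibitors and of Nfkbie, and changed the call of no subunit.

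**Figure D2:**
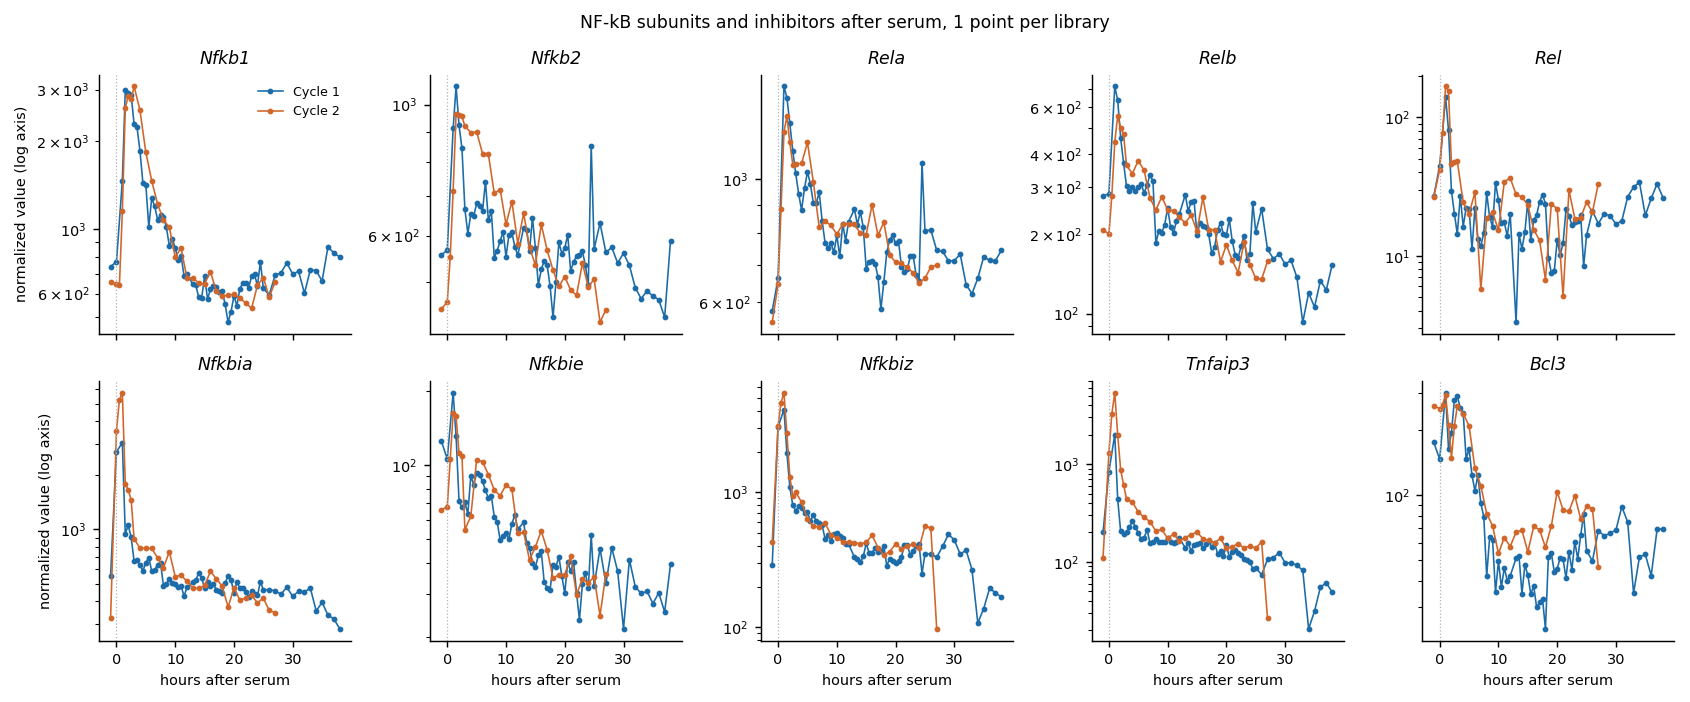
Normalized value (log axis) of each member against hours after serum, with 1 point per library and a line per Cycle. Nfkbia, Nfkbiz and Tnfaip3 climb to their highest value at 1 h and have lost most of it by 1.5 h in Cycle 1, Nfkb1 lies between 2588 and 2980.2 from 1.5 h to 2.5 h in both Cycles, and Bcl3 falls after 4 h.

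From 2 h to 3 h Nfkb1, Rela, Nfkb2 and Relb were still above starved, and Rel and the inhibitors were not called against both starved libraries. Nfkb1 was at 2922, 2874 and 2281 at 2 h, 2.5 h and 3 h in Cycle 1 and at 2861, 2786 and 3078 in Cycle 2. Rela was at 1261, 1124 and 1024 in Cycle 1 and at 1165, 1063 and 1066 in Cycle 2. Nfkb2 was at 923, 843 and 665 and at 961, 955 and 919.7, and Relb at 460.4, 369.7 and 302 and at 502, 476 and 362.

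Against starved, 4 members rose in this window and 0 fell, where 10.2% of all genes rose and 29.1% fell. They were the subunits Nfkb1 (log2 1.99, standard error 0.15, adjusted p = 0.0001, limma), Rela (0.87, adjusted p = 0.00082), Nfkb2 (0.78, adjusted p = 0.0091) and Relb (0.76, adjusted p = 0.015). Nfkb1 was the only one of the 4 called when a change of 2-fold was asked for. Rel, the remaining subunit, was at 29.4, 20.2 and 14.4 in Cycle 1 and at 45.8, 48.0 and 48.1 in Cycle 2. Its log2 change was -0.13 (standard error 0.33, adjusted p = 0.78, limma) and 0.21 with -1 h alone (adjusted p = 0.63). In Cycle 2 all 3 hours lay above both starved libraries, and in Cycle 1 the 2.5 h and 3 h libraries lay below both.

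The 3 early inhibitors came down between or near their 2 starved libraries. Nfkbia was at 1054, 905 and 668 in Cycle 1 and at 1661.8, 1463 and 888 in Cycle 2, always above its -1 h value and below its 0 h value. Nfkbiz, at 1093, 801 and 729.7 in Cycle 1 and 1305, 938 and 1003 in Cycle 2, was placed likewise. Their log2 changes were -0.12 and -0.11 against both starved libraries and 1.31 (standard error 0.34, adjusted p = 0.014, limma) and 1.45 (standard error 0.17, adjusted p = 0.00037) against the -1 h libraries alone. With that starved level 6 members rose and 0 fell, where 10.2% of all genes rose and 30.2% fell. Tnfaip3, at 206, 195 and 203 in Cycle 1 and 875, 615 and 442 in Cycle 2, gave 1.25 there (standard error 0.56, adjusted p = 0.10).

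Over 4 h to 8 h the direction of Nfkbia and Nfkbiz depended on the starved level. Nfkbia had a lowest, median and highest value of 485, 631 and 654 over the 5 shared hours of Cycle 1 and of 613, 785 and 787 in Cycle 2, above the -1 h library in 4 of 5 hours in Cycle 1 and in 5 of 5 in Cycle 2, and below every 0 h library. Against both starved libraries it fell by 0.80 on the log2 scale (standard error 0.27, adjusted p = 0.040, limma), and against -1 h alone the change was 0.64 (standard error 0.34, adjusted p = 0.16). Nfkbiz, with 452, 675 and 768 in Cycle 1 and 556, 592 and 845 in Cycle 2, fell by 0.73 (adjusted p = 0.0044, limma) against both and rose by 0.84 (adjusted p = 0.0047) against -1 h alone.

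Nfkb1, Rela and Bcl3 kept their direction with each starved level, although with the 0 h libraries alone the calls of Rela (log2 0.51) and Bcl3 (-0.61, adjusted p = 0.080, limma) were lost. Nfkb1 had 1075, 1272 and 1849 in Cycle 1 and 1072, 1460.2 and 2547 in Cycle 2, and was still up by 1.02 (standard error 0.15, adjusted p = 0.0012, limma). Rela had 768, 907 and 1031 in Cycle 1 and 819, 989 and 1164.5 in Cycle 2, and was up by 0.62 (adjusted p = 0.0044). Bcl3, a nuclear partner of p50 and p52, had 41.9, 105 and 241 in Cycle 1 and 81.9, 133 and 239.7 in Cycle 2, and fell by 0.69 (standard error 0.25, adjusted p = 0.048). The call of Bcl3 was lost with edgeR on recovered reads (log2 -0.29), with a median-of-ratios scaling (-0.53) and with no block for the Cycle, and that of Nfkbia with no block.

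In this window 2 members rose and 3 fell, where 12.3% of all genes rose and 26.2% fell. With -1 h alone 3 rose and 1 fell, where 11.9% rose and 26.9% fell. Under a median-of-ratios scaling Nfkbia (-0.63) and Nfkbiz (-0.56) lost their calls too, and the change of Nfkb2, 0.52 here, became 0.68 and passed. That scaling raised the median log2 change of all genes by 0.175, 0.289 and 0.153 in the first 3 windows. It moved the share of calls that were rises from 33.2% to 51.5% at 1 h to 1.5 h, from 26.1% to 48% at 2 h to 3 h and from 31.9% to 44.3% at 4 h to 8 h. Relative to the median of all genes, -0.23 on the deposited scale, the 4 h to 8 h changes were those of Nfkb1 and Rela above it and of Nfkbia, Nfkbiz and Bcl3 below it with either scaling.

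The second question, whether the early rise was passing, was put by comparing 4 h to 8 h with 1 h to 1.5 h, a contrast that does not use the starved libraries. Here 7 of the 10 members fell and 0 rose, where 18.3% of all genes fell and 14.5% rose. Tnfaip3 fell by 2.90 on the log2 scale (standard error 0.47, adjusted p = 0.0024, limma), Rel by 2.78 (standard error 0.33, adjusted p = 0.00072), Nfkbiz by 2.40 (standard error 0.14, adjusted p = 0.00011) and Nfkbia by 1.82 (standard error 0.27, adjusted p = 0.0017). Relb fell by 0.98, Nfkbie by 0.94 and Bcl3 by 0.90. All 5 inhibitors fell, and of the subunits Rel and Relb. Bcl3 had no called rise at 1 h to 1.5 h (log2 0.21), so its fall here is not the loss of a called rise. Rela (-0.52), Nfkb1 (-0.41) and Nfkb2 (-0.32) were not called. Of the 7, Tnfaip3, Rel, Nfkbiz and Nfkbia passed a 2-fold limit.

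**Figure D3:**
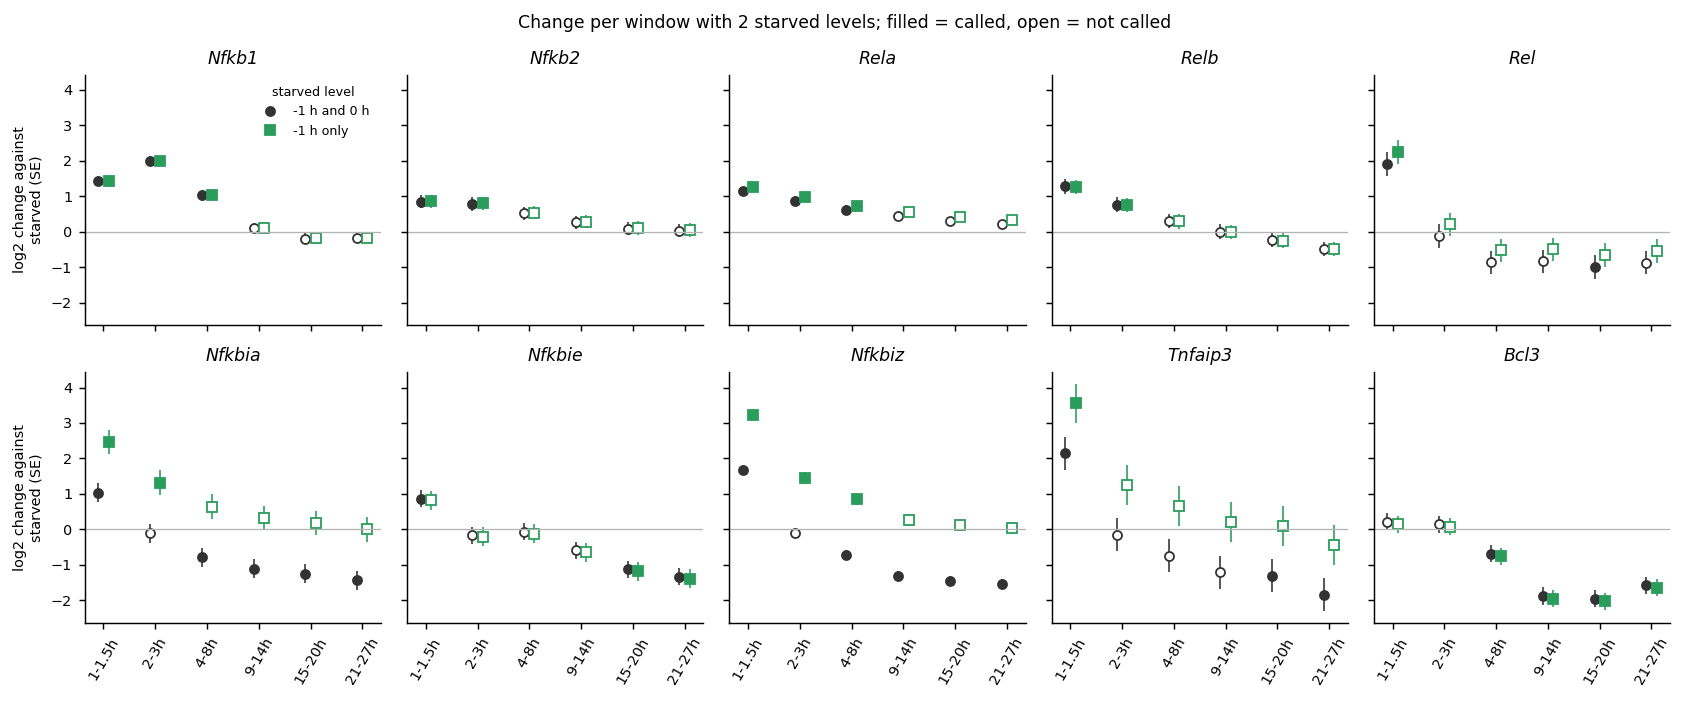
Log2 change of each member against starved in 6 windows, as estimated by limma with its standard error (bars), with the starved level taken from the -1 h and 0 h libraries (circles) or from the -1 h libraries alone (squares), filled where called. The 2 starved levels give the widest gaps for Nfkbia, Nfkbiz and Tnfaip3, with 1.03 and 2.46 for Nfkbia at 1 h to 1.5 h, and nearly coincide for Nfkb1, Nfkb2, Relb, Nfkbie and Bcl3.

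From 9 h on no member was called as a rise against starved. Rela, at 767 to 883 in Cycle 1 and 795 to 831 in Cycle 2 at 9 h to 14 h, stayed above its starved values of 552 to 663. Its log2 change there was 0.44 (adjusted p = 0.021, limma), under the 1.5-fold limit. With -1 h alone it was 0.54 (adjusted p = 0.0096, limma), also under that limit. Bcl3 fell by 1.88 at 9 h to 14 h (standard error 0.25, adjusted p = 0.0010, limma), by 1.96 at 15 h to 20 h (adjusted p = 0.00085) and by 1.58 at 21 h to 27 h (adjusted p = 0.0018). Its lowest, median and highest values at 15 h to 20 h were 23.8, 40.1 and 53.7 in Cycle 1 and 54.3, 70.2 and 104 in Cycle 2, with every hour below the starved range of 147 to 260. Nfkbie, the gene of IkB epsilon, had 30.1, 38.8 and 44.6 in Cycle 1 and 34.7, 40.6 and 54.1 in Cycle 2 at those hours, below every starved value of 65.8 to 125. It fell by 1.13 at 15 h to 20 h (standard error 0.24, adjusted p = 0.0073, limma) and by 1.35 at 21 h to 27 h (adjusted p = 0.0032). Both falls were called with the -1 h libraries alone too, at -1.18 and -1.39 for Nfkbie and at -2.04 and -1.65 for Bcl3.

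The other late falls depended on the 0 h libraries. Against both starved libraries Nfkbia fell by 1.44, Nfkbiz by 1.53 and Tnfaip3 by 1.85 at 21 h to 27 h (adjusted p = 0.0040, 0.00021 and 0.014, limma). Against the -1 h libraries alone the changes were -0.003, 0.03 and -0.45, none of which passed. The lowest, median and highest values of Nfkbia in this window, 430.2, 456 and 473 in Cycle 1 and 345, 406 and 431 in Cycle 2, lay below the -1 h value of 555 in Cycle 1 and above the -1 h value of 323 in Cycle 2. Rel fell by 0.99 at 15 h to 20 h (adjusted p = 0.040, limma) and by 0.66 with -1 h alone, where it did not pass (adjusted p = 0.14).

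Counted over the members, 3 fell at 9 h to 14 h, 6 at 15 h to 20 h and 5 at 21 h to 27 h, with 0 rises in each. Of all genes 22.2%, 23.1% and 26% fell and 12.2%, 12.4% and 12.3% rose. Against -1 h alone the counts were 1, 2 and 2 falls and 0 rises, and Bcl3 was the 1 at 9 h to 14 h. The share of all genes that fell was then 22.9%, 23.4% and 26%, and the share that rose 11.7%, 11.7% and 11.6%. The median log2 change of the members was -0.72, -1.06 and -1.11 in these windows, against -0.14, -0.13 and -0.16 for all genes. With -1 h alone it was 0.15, -0.05 and -0.31.

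No subunit was called at 21 h to 27 h. At 21 h to 27 h Nfkb1 had 593, 637 and 694 in Cycle 1 and 534, 584 and 679.9 in Cycle 2 (log2 -0.17, standard error 0.15). Nfkb2 had 494, 562 and 629.6 and then 428, 485 and 539 (0.03, standard error 0.19), and Rela 655, 727 and 809.8 and then 650.4, 693 and 705 (0.22, standard error 0.12). Relb had 162, 187 and 248 in Cycle 1 and 135, 153 and 186 in Cycle 2 (-0.49, standard error 0.20, adjusted p = 0.078, limma). Rel had 12.3, 17.5 and 21.1 and then 5.11, 20.7 and 33.3 (-0.88, standard error 0.33, adjusted p = 0.057, limma), and -0.54 with -1 h alone. None of the 5 passed, which does not show that they were level. In the 24.5 h library of Cycle 1, which stood further from its neighbours than any other library and entered no test, Rela was at 1071 and Nfkb2 at 853.

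The last hours of both courses held a further drop, widest in Nfkbiz and Tnfaip3. In Cycle 2, Nfkbiz went from 563 and 542 at 25 h and 26 h to 97.2 at 27 h, and Tnfaip3 from 138 and 161 to 26.4. Bcl3 went from 88.8 and 86.4 to 46.0, whereas Nfkbia, at 416, 355 and 345, and the 5 subunits did not fall below 0.894 of the mean of the 2 hours before. Over 10485 genes with a mean value of at least 50, 0.916% stood at under 0.5 of that mean. Fos, Egr1 and Myc went from 171, 1598 and 1404 at 26 h to 13.7, 63.6 and 301 at 27 h.

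Cycle 1 showed lower values of the same genes from 34 h to 38 h. Nfkbiz had a lowest and highest value of 347 and 487 from 28 h to 32 h, 267 at 33 h, and 107 and 194 from 34 h to 38 h. Tnfaip3 had 92.6 and 124 from 28 h to 32 h and 20.8 and 61.4 from 34 h to 38 h. Nfkbia went from a range of 425 to 477 to one of 281 to 394. The earlier and the later hours did not overlap for any of these 3. The share of all genes without overlap was not counted, so this is not read as a trait of the members. Bcl3 had 64.6 to 88.3 and then 42.2 to 69.7, with overlap. Nfkb1 had 601 to 764 and then 662 to 867, and Rela 646 to 741 and then 663 to 744, with overlap. These hours exist in 1 Cycle and the 27 h library in the other, so no test was made, and without the 27 h libraries 6 members fell at 21 h to 27 h, in place of 5, with Rel added (log2 -0.94).

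**Figure D4:**
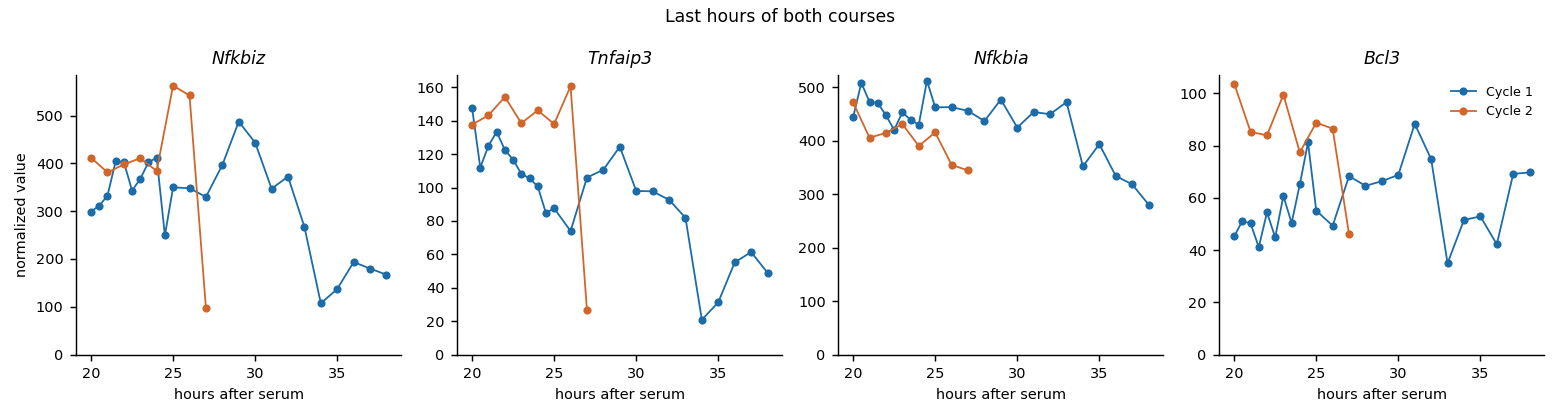
Normalized value (linear axis from 0) of Nfkbiz, Tnfaip3, Nfkbia and Bcl3 from 20 h on, with 1 point per library and a line per Cycle. Nfkbiz and Tnfaip3 drop at 27 h in Cycle 2, to 97.2 and 26.4, and after 33 h in Cycle 1.

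The Cycles differed most in Tnfaip3 and Bcl3. Tnfaip3 was higher in Cycle 2 at 25 of 29 shared hours, with a median ratio of 1.34, and Bcl3 at 23 of 29 hours with a median ratio of 1.32. The median ratio of Nfkb1 was 0.984, of Rela 0.993 and of Relb 0.970. The summed leukocyte markers were higher in Cycle 2 in every window, 3283 and 3313 against 1145 and 1064 in the starved libraries, and their part in the difference of Tnfaip3 and Bcl3 was not tested.

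Over the 31 hours from -1 h to 27 h that both Cycles hold, the courses of the members are described by Pearson correlations of log2(value + 1) between genes of the same libraries. Nfkbia, Nfkbiz and Tnfaip3 had correlations with each other of 0.904 to 0.974 in both Cycles, and of 0.877 to 0.977 without the 0 h libraries. Nfkb2, Rela and Relb had 0.87 to 0.918 with each other, and 0.885 to 0.923 without 0 h. Between these 2 sets of genes the correlations were 0.475 to 0.784 with the 0 h libraries and 0.633 to 0.893 without them, so that without 0 h the ranges within and between the sets overlap. Nfkb1 correlated with Relb at 0.746 and 0.874 and with Nfkbia at 0.494 and 0.559, and without 0 h at 0.752 and 0.873 and at 0.653 and 0.697. By the lower of its 2 correlations, 1 per Cycle, Rel was least like Nfkb2, at 0.468 and 0.336, and Rela, at 0.373 and 0.487. The genes most like Nfkbia, Nfkbiz and Tnfaip3, by the lower of the 2 correlations, were led in each case by Ccnl1, a cyclin linked to RNA splicing, at 0.951 and 0.95, 0.966 and 0.954, and 0.941 and 0.948. Zfp36, whose product shortens the life of cytokine mRNAs, was among the 3 most alike for Nfkbiz and Tnfaip3, and Atf3, a stress-induced repressor, for Nfkbia and Tnfaip3. Nearest to Nfkb1 came D8Ertd82e, Abtb2 and Vegfa (0.960 to 0.988), to Nfkb2 Bag3, Rcan1 and Gabarapl1, to Rela Rcan1, Bdkrb1 and Sgk1, to Relb Zfand5, Btg1 and Gabarapl1, and to Rel Erbb2ip, Rnf19a and Zbtb10 (0.774 to 0.811). Nearest to Nfkbie came Maged1, Ccdc157 and Derl1, and to Bcl3 the genes Lgmn and Chodl (0.911 to 0.919).

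The rest of the pathway was counted over 80 listed genes, of which 79 were in the table. At 0 h against -1 h, 6 rose and 0 fell, where 0.459% of all genes rose and 0.0944% fell. All 6 were target genes, with the chemokine genes Cxcl2 at 4.93 and Cxcl1 at 3.62 on the log2 scale. At 1 h to 1.5 h 20 of the 79 rose and 5 fell, where 4.52% of all genes rose and 9.09% fell. With -1 h alone 26 rose and 6 fell, where 5.05% of all genes rose and 11% fell. The rises were mostly among target genes of NF-kB, 13 of 24 with 0 falls, and among the other inhibitors, 4 of 8 with 0 falls. The latter were Zc3h12a, an RNase that degrades cytokine mRNAs, Tnip3, Nfkbid and Nfkbib, the gene of IkB beta, named here after their values were seen. Of the adaptors and kinases 1 of 28 rose and 5 fell. Their median log2 change was -0.12, against 1.39 for the target genes and -0.15 for all genes.

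By the naming rule, the largest rises at 1 h to 1.5 h were those of Csf2 and Cxcl2. Csf2, the gene of a granulocyte and macrophage growth factor, lay between 14.9 and 49.2 over the 4 libraries and between 0 and 2.47 in the starved ones, so the size of its change depends on the 1 added to each value. Cxcl2, a neutrophil chemokine, lay between 123 and 275 in Cycle 1 and between 977 and 1543 in Cycle 2, and rose by 3.88 on the log2 scale (adjusted p = 0.0012, limma) and by 6.34 with -1 h alone. The largest falls were those of Rnf31 (-1.15), a subunit of the linear ubiquitin ligase, and Map3k14 (-1.07), the kinase of the non-canonical pathway.

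At 2 h to 3 h 22 of the 79 genes rose and 11 fell, where 10.2% of all genes rose and 29.1% fell. With -1 h alone 26 rose and 13 fell, where 10.2% of all genes rose and 30.2% fell. Csf2 had the largest rise, 5.61 (adjusted p = 9.3e-05, limma), a size that again depends on the 1 added to each value. Il1a, which codes for interleukin 1 alpha, rose by 4.25 (adjusted p = 0.0015, limma), while the transcription factor gene Irf1 fell by 2.26 and the receptor gene Tlr3 by 1.68. With -1 h alone the changes of Il1a, Irf1 and Tlr3 were 5.09, -1.70 and -1.73, all called. At 4 h to 8 h 18 rose and 10 fell, where 12.3% of all genes rose and 26.2% fell. With -1 h alone 20 rose and 8 fell, where 11.9% of all genes rose and 26.9% fell. Il1a, with 219 to 479 in Cycle 1 and 312 to 462 in Cycle 2 against 1.50 to 25.6 in the starved libraries, rose by 5.81 (adjusted p = 0.0005, limma) and the prostaglandin synthase gene Ptgs2 by 3.62 (adjusted p = 0.00046). Target genes outnumbered the other roles among the rises, with 12 of 24 at 2 h to 3 h and 10 of 24 at 4 h to 8 h, but Irf1 (-2.24) and Tlr3 (-2.45) were again the largest falls.

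In the late windows the pathway genes had 10 rises and 18 falls of 79 at 9 h to 14 h, 11 and 22 at 15 h to 20 h and 8 and 23 at 21 h to 27 h. Of all genes 12.2%, 12.4% and 12.3% rose and 22.2%, 23.1% and 26% fell, so these counts are near the background and no result about the pathway is read from them. With -1 h alone the counts were 15 and 14, 15 and 19, and 12 and 22. Of all genes 11.7%, 11.7% and 11.6% then rose and 22.9%, 23.4% and 26% fell, and no result is read from these counts either. Il33, the gene of a nuclear cytokine of the interleukin 1 family, had the largest fall at 21 h to 27 h (log2 -6.16, adjusted p = 0.00014, limma), from 339 to 668 in the starved libraries to 1.97 to 12.8. Cxcl10, an interferon-induced chemokine, fell by 4.43 there, Csf1, which codes for macrophage growth factor, rose by 2.47 and the receptor gene Tnfrsf12a by 2.23. Between 1 h to 1.5 h and 4 h to 8 h, 9 of the 79 rose and 21 fell, where 14.5% of all genes rose and 18.3% fell, and 12 of the 21 were target genes.

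**Figure D5:**
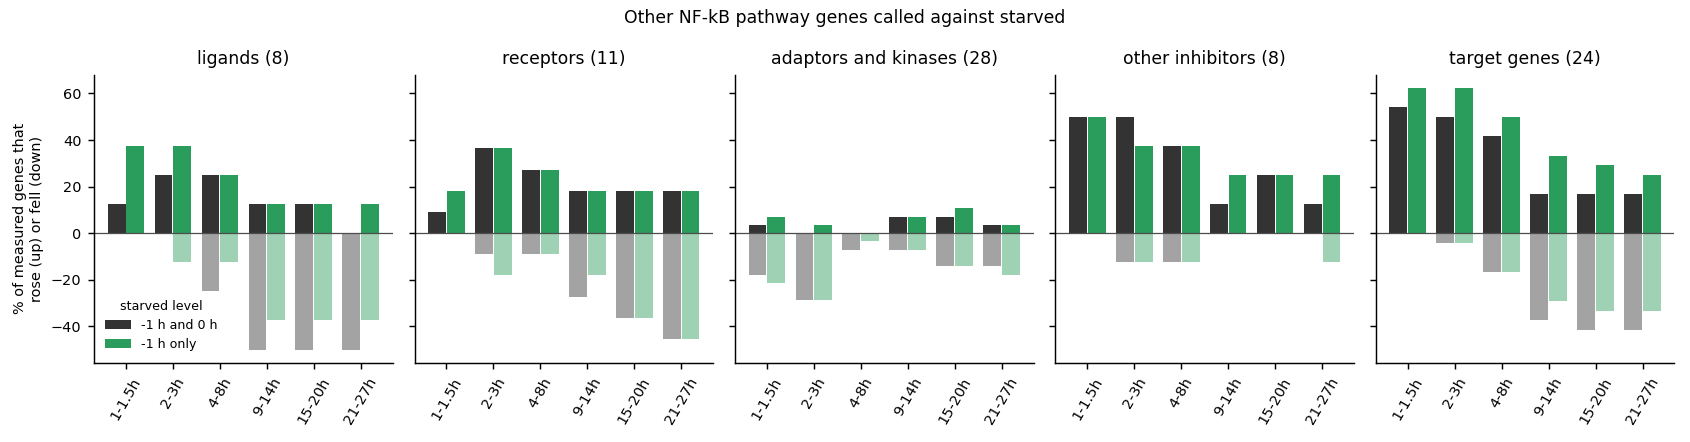
Percent of the measured pathway genes of each role (number in the title) that rose (solid bars, up) or fell (pale bars, down) against starved in 6 windows, with the starved level from the -1 h and 0 h libraries (grey) or the -1 h libraries alone (green). Target genes and other inhibitors hold the most rises before 9 h. Adaptors and kinases have more falls than rises at 1 h to 3 h, as all genes do. Of all genes 4.52% rose and 9.09% fell at 1 h to 1.5 h, and 10.2% rose and 29.1% fell at 2 h to 3 h.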

How the data were processed

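RNA was sequenced with a strand-specific mRNA kit as single reads. Per the labels and the study's methods, the authors aligned reads with STAR to mm9, counted exon reads on both strands with HOMER and scaled every library to the same total. The deposited values are this normalized signal, which is neither per length nor a count. Outside 3291 rows averaged over transcripts, nearly all low values were whole multiples of 1 read. Reads were therefore recovered for edgeR and for the depth, 4352236 to 12551740 reads per library. For edgeR the averaged rows were rounded to whole reads. Of 96 sample columns 95 were used, and 1 whose name matched no library was not. Rows with several transcripts of a symbol were averaged, giving 15895 genes.

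For each window, log2(value + 1) was averaged per Cycle over the hours both Cycles hold (1 h to 1.5 h, 2 h to 3 h, 4 h to 8 h, 9 h to 14 h, 15 h to 20 h, 21 h to 27 h) and compared with starved in limma 3.58.1 (R 4.3.3) with Cycle as a block. P-values were adjusted over all genes by the Benjamini-Hochberg method. A gene was called at an adjusted p under 0.05 and 1.5-fold. The block follows the study's own baseline within each Cycle. Over 465 pairs of shared hours, the differences between the Cycles at those hours correlated over 10485 genes between -0.15 and 0.895, with a median of 0.423. Alternatives were other starved levels, no block, another scaling, pseudocount, filter, unit or threshold, edgeR 4.0.16 and leaving out a Cycle. The fits were tested on simulated data.

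All 10 members are named whatever their values. Of the pathway list, at most the 2 largest rises and 2 largest falls called in a window are named, and for each member the 3 genes with the most similar course, of which 1 is not reported here. The members and lists were chosen with earlier results of these data known. The comparison of 0 h with -1 h and the fit without the 27 h libraries were chosen after seeing the data. Positions are those of mm9, and promoter sequences are RefSeq's on GRCm38.p6.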

Additional observations from a re-analysis of the deposited data

Results flagged for a closer look

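In 3 cases every shared hour of a window lay above the gene's own starved level in Cycle 2 and below it in Cycle 1, with the starved level taken as the mean of log2(value + 1) over the -1 h and 0 h libraries. For Tnfaip3 at 2 h to 3 h the log2 difference of Cycle 2 minus Cycle 1 was 1.74, for Rel at 2 h to 3 h it was 1.22 and for Relb at 9 h to 14 h it was 0.489. These cases came from a search of all members in every window against starved. The share of all genes that meet the same rule was not counted, so the 3 cases are not read as a trait of the members. With 1 course per Cycle the difference between the Cycles was not tested. The summed leukocyte markers were 1279 to 1423 in Cycle 1 and 3572 to 3909 in Cycle 2 at 2 h to 3 h, and their part in these differences was not tested.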

How the results depend on the processing

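The number of members called changed most with the starved level. At 9 h to 14 h it went from 3 to 1 with the -1 h libraries alone and to 5 with the 0 h libraries alone, at 15 h to 20 h from 6 to 2 and at 21 h to 27 h from 5 to 2 with -1 h alone, and at 2 h to 3 h from 4 to 7 with 0 h alone. Against -1 h alone the log2 change turned upward for Nfkbia at 2 h to 3 h (1.31), 4 h to 8 h (0.64), 9 h to 14 h (0.32) and 15 h to 20 h (0.18), for Nfkbiz at 2 h to 3 h (1.45), 4 h to 8 h (0.84), 9 h to 14 h (0.26), 15 h to 20 h (0.11) and 21 h to 27 h (0.033), and for Tnfaip3 at 15 h to 20 h (0.084). Changes that were not called also turned upward, those of Tnfaip3 at 2 h to 3 h (1.25), 4 h to 8 h (0.65) and 9 h to 14 h (0.19) and of Rel at 2 h to 3 h (0.21). Against 0 h alone that of Nfkbia at 1 h to 1.5 h turned to -0.41. At 4 h to 8 h 5 members were called, and 3 with a median-of-ratios scaling. With each hour as the unit 6 were called at 9 h to 14 h. With a 2-fold threshold 1 was called at 2 h to 3 h, 1 at 4 h to 8 h and 4 in the comparison of 4 h to 8 h with 1 h to 1.5 h.

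Without the replicate block for the Cycle, 3 members were called at 4 h to 8 h in place of 5, and 6 at 1 h to 1.5 h in place of 9. Leaving out a Cycle leaves no test, and the number of members past 1.5-fold in the Cycle that remained was 7 to 9 at 1 h to 1.5 h, 5 to 6 at 2 h to 3 h, 4 to 7 at 4 h to 8 h, 4 to 6 at 9 h to 14 h, 6 at 15 h to 20 h, 6 at 21 h to 27 h and 7 to 10 in the comparison of 4 h to 8 h with 1 h to 1.5 h. Only 2 courses were sampled, which limits every test here, and Rel, with values under 50 outside 1 h to 1.5 h of Cycle 1 and 0.5 h to 1.5 h of Cycle 2, is the member that depth limits most. The cause of the changes with scaling and block was not tested.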
